A study of Mus musculus with 6 samples.

Results

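The genes described here are 10 mouse genes of blood clotting and plasminogen activation: F3, Tfpi, Tfpi2, Thbd, Procr, Plat, Plau, Plaur, Anxa2 and F10. Their members on the arrays are all probe sets whose platform gene symbol is one of these names, which gave 19 probe sets, among 18193 genes with a single-gene probe set in all. The study profiled total RNA from the aorta of 32-week-old mice, 3 samples from apoE-/- mice on the C57BL/6J background and 3 from wild-type C57BL/6J mice, 1 array each. Mice without apolipoprotein E develop high plasma cholesterol and atherosclerotic plaques. The labels name no other allele, treatment or diet, and do not say whether a replicate was 1 animal or a pool, so the p-values below speak for the spread among these 6 arrays, part of which may be technical.

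Clotting starts when tissue factor, the product of F3, meets factor VII of the blood and the pair activates factor X. Vessels hold this in check with tissue factor pathway inhibitor, which blocks that complex, and with thrombomodulin and the endothelial protein C receptor, which turn thrombin towards activation of protein C. Clots are dissolved by plasmin, which is cut from plasminogen by tissue-type (Plat) or urokinase-type (Plau) plasminogen activator, the second of them held on cells by its receptor Plaur. In the artery, tissue factor is known from the adventitia and from plaques, and the protein C receptors and tissue-type activator from endothelium.

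None of the 10 genes was called changed between apoE-/- and wild-type aorta. Of 9 that could be tested, 0 were called higher and 0 lower at a Benjamini-Hochberg adjusted p under 0.05 in limma's test over 13052 genes, where 3.65% of all genes were called, 3.19% higher and 0.467% lower. Read by probe set, 0 of the 14 kept member probe sets were called, against 2.79% of 27022. At an unadjusted p under 0.05 there were 2 of the 9, Procr and Plaur, against 18.4% of all genes. The log2 changes of the 9, apoE-/- minus wild type, lay between -0.24 (F3) and 0.59 (Procr). Their median was 0.21 with 7 above 0, against a median of -0.05 and 41.2% above 0 over all genes. By kept probe set the member median was 0.11 with 9 of 14 above 0, against a median of -0.04 over all kept probe sets. For 8 of the 9 tested genes the 95% interval lay within a 2-fold change in either direction, as it did for 89.0% of all genes tested. Adjusted p-values ran from 0.214 to 0.988. The tenth gene, Plau, had no probe set above the filter on dim signals.

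**Figure D1:**
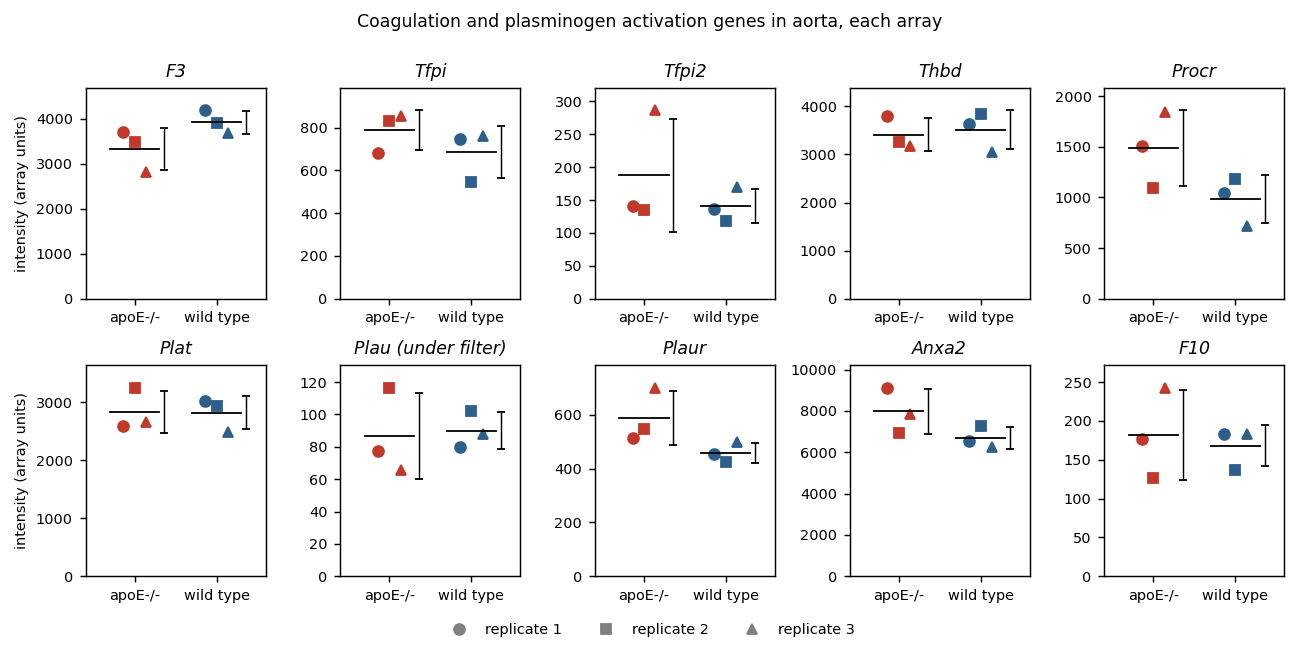
Intensity of each gene's brightest probe set (vertical axis from 0, array units) on the 3 apoE-/- arrays (red, left) and the 3 wild-type arrays (blue, right); horizontal lines are group means, side bars 1 SD, and marker shapes the replicate numbers. The groups overlap in every panel except that of Plaur, where the apoE-/- arrays read 515.4 to 700.9 and the wild-type arrays 423.4 to 499.1.

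The arrays were checked before these values were read. Apoe itself gave 239.5, 56.3 and 462.1 units on the apoE-/- arrays and 4309.1 to 5685.6 units on the wild-type arrays, and changed by -4.65 ± 0.56 in log2 (SE, adjusted p = 0.00393 in limma), so every label matched its array. All 8 smooth muscle and all 10 endothelial markers passed the filter on dim signals. Apart from the genotype, liver transcripts differed between arrays, and apoE-/- replicate 3 carried the most. The 7 hepatocyte markers with a probe set summed to 734, 946 and 23822 units on the apoE-/- arrays. On the wild-type arrays they summed to 3444, 926 and 3200 units. Macrophage markers summed to between 35165 and 50301 units on apoE-/- arrays and between 16786 and 18763 units on wild-type arrays, and 8 of the 10 rose. In such bulk tissue a change in the number of cells of a type and a change in RNA per cell cannot be told apart.

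Tissue factor, which starts clotting, was bright in the aorta and was not called. F3 gave 3693.6, 3482.4 and 2809 units in apoE-/- aorta and 4186.5, 3892.8 and 3670 units in wild-type aorta. The groups overlapped by a narrow margin, since the highest apoE-/- array lay just above the lowest wild-type array. F3 averaged 3328 ± 462 units in apoE-/- aorta and 3916 ± 259 units in wild-type aorta (SD, n = 3 each). This is a log2 change of -0.24 ± 0.12 (SE, 95% interval -0.51 to 0.03, limma adjusted p = 0.318). Without apoE-/- replicate 3, the lowest of the 6, the log2 change was -0.12 (adjusted p = 0.667). The interval spans 0 and does not reach a 2-fold change.

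Factor X, the protease that tissue factor with factor VII activates, is made chiefly by the liver. Its brightest probe set gave 176.4, 126.7 and 242.7 units in apoE-/- aorta and 183.2, 137.3 and 183.5 units in wild-type aorta. The highest value was that of the array with the most liver transcripts, and the other 5 arrays did not separate by genotype. The log2 change was 0.07 ± 0.25 (SE, 95% interval -0.51 to 0.65, limma adjusted p = 0.908) with that array and -0.14 (adjusted p = 0.856) without it. A pair of dimmer F10 probe sets fell under the filter and pointed in opposite directions, with log2 changes of -0.60 and 0.64 in a fit without the filter and intervals that both spanned 0. In the gene table F10 lies between F7 and Proz, its neighbours on either side.

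The inhibitors of the tissue factor complex came next. Tfpi, which blocks activated factor X and the tissue factor complex, has 4 probe sets, all above the filter. The brightest gave 683.5, 831 and 853.4 units in apoE-/- aorta and 747.4, 544 and 762.7 units in wild-type aorta. Wild-type replicate 2 was the low array and the other 5 lay between 683.5 and 853.4 units. The log2 change was 0.21 ± 0.16 (SE, 95% interval -0.15 to 0.57, limma adjusted p = 0.524), and without wild-type replicate 2 it was 0.06 (adjusted p = 0.876). Without apoE-/- replicate 3, the highest array, it was 0.15 (adjusted p = 0.777). A further pair of Tfpi probe sets had log2 changes of 0.24 and 0.14, whereas the dimmest, 1452432_at, had -0.13 ± 0.14 (SE). It read 264.3, 304 and 329.8 units in apoE-/- aorta and 325.2, 343.5 and 314.4 units in wild-type aorta. None of the 4 was called, and the difference between them was not tested. The array table does not say which Tfpi isoforms each probe set reads.

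Tfpi2 encodes a related Kunitz-type inhibitor that acts on plasmin and other proteases of the matrix. It was dim, with 140.7, 134.8 and 286.8 units in apoE-/- aorta and 137, 117.5 and 169.5 units in wild-type aorta. A single array, apoE-/- replicate 3, stood above the rest, and the other pair of apoE-/- arrays lay inside the wild-type range. The log2 change was 0.31 ± 0.30 (SE, 95% interval -0.38 to 0.99, limma adjusted p = 0.634), and -0.02 (adjusted p = 0.98) without that array. The same array carried the most liver transcripts, and the part of other tissue in its Tfpi2 value was not tested. Markers of mesothelium, the outer lining of serous cavities, summed to 847, 1265 and 1412 units on the apoE-/- arrays and to 1046, 1361 and 906 units on the wild-type arrays.

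**Figure D2:**
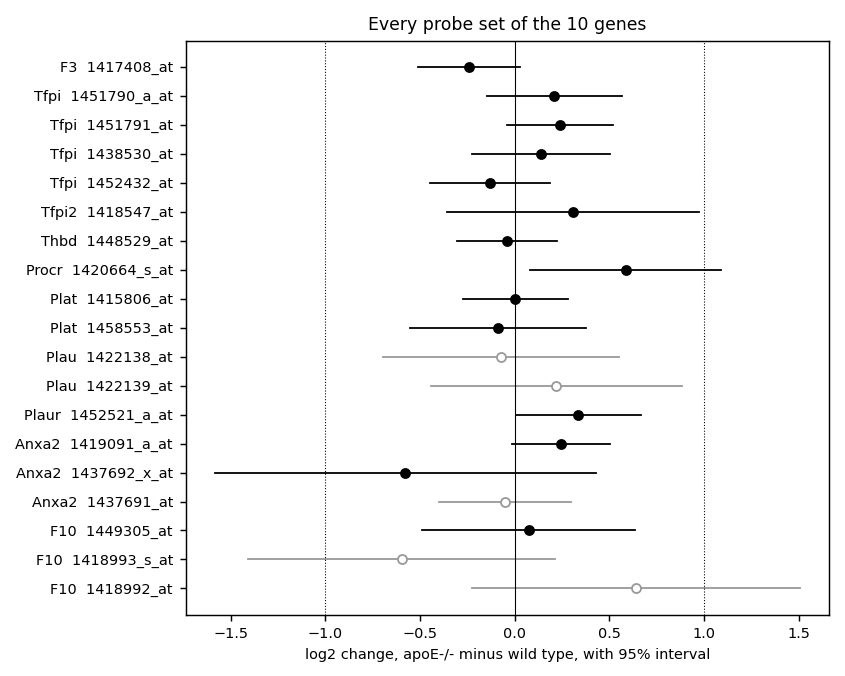
Log2 change, apoE-/- minus wild type (horizontal axis), of all 19 probe sets of the 10 genes with 95% intervals; filled black points passed the filter on dim signals and open grey points did not, and dotted lines mark a 2-fold change. Only the intervals of Procr and Plaur lie to the right of 0, at 0.08 and 0.01 at their lower ends, and neither passed the adjusted test.

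The protein C pathway is represented by its pair of endothelial receptors. Thrombomodulin, the product of Thbd, binds thrombin so that it activates protein C. Thbd gave 3800.1, 3248.6 and 3184.4 units in apoE-/- aorta and 3641.2, 3840.9 and 3054.5 units in wild-type aorta. Both groups covered nearly the same range. This gave a log2 change of -0.04 ± 0.12 (SE, 95% interval -0.30 to 0.22, limma adjusted p = 0.886).

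Procr encodes the receptor that presents protein C to thrombomodulin, and it had the largest log2 change among the tested members. It gave 1511.8, 1095.4 and 1847.3 units in apoE-/- aorta and 1041.5, 1182.2 and 721.9 units in wild-type aorta. Replicates 1 and 3 of apoE-/- lay above all wild-type arrays, while apoE-/- replicate 2 fell between wild-type replicates 1 and 2. Procr averaged 1485 ± 377 units in apoE-/- aorta and 982 ± 236 units in wild-type aorta (SD, n = 3 each). This is a log2 change of 0.59 ± 0.22 (SE, 95% interval 0.08 to 1.10), with an unadjusted p = 0.0291 and an adjusted p = 0.214 in limma. Without apoE-/- replicate 2 the log2 change was 0.79 (adjusted p = 0.0795). It was 0.41 (adjusted p = 0.51) without apoE-/- replicate 3 and 0.38 (adjusted p = 0.449) without wild-type replicate 3, so its size depended on single arrays of either genotype. Its probe set is of the type that can read more than 1 transcript, and no second Procr probe set was there to compare.

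Endothelial markers are given beside these receptors. Of 10, 1 rose (Emcn, an endothelial sialomucin, by 0.76 in log2), and their median log2 change was 0.21. Their summed intensity was 11916, 12787 and 14523 units on the apoE-/- arrays and 12979, 11744 and 9668 units on the wild-type arrays. For Procr and for this sum alike the highest array was apoE-/- replicate 3 and the lowest wild-type replicate 3. For Thbd, also an endothelial gene, the lowest array was wild-type replicate 3 as well, but apoE-/- replicate 3 was next to it. The part of endothelial content in the Procr values was not tested.

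Neither plasminogen activator was called. Plat, which encodes tissue-type plasminogen activator, the main activator in blood, gave 2589.7, 3255.2 and 2661.1 units in apoE-/- aorta and 3027.6, 2940.2 and 2496.3 units in wild-type aorta. The mean was 2835 ± 365 units in apoE-/- aorta and 2821 ± 285 units in wild-type aorta (SD, n = 3 each). The log2 change of 0.0045 ± 0.12 (SE) had a 95% interval of -0.27 to 0.28 (limma adjusted p = 0.988). A dimmer second probe set read 169.2, 218.6 and 148.1 units in apoE-/- aorta and 216.6, 158.1 and 195.6 units in wild-type aorta, a log2 change of -0.09 ± 0.21 (SE). Neither interval reached a 2-fold change.

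Plau, the urokinase that works at cell surfaces and is made by macrophages and migrating cells, was not measured above the filter, which removed probe sets with a mean under about 124.2 units. Its probe set 1422138_at gave 77.3, 116.5 and 65.8 units in apoE-/- aorta and 79.8, 102.2 and 88 units in wild-type aorta, with the highest value in either group on replicate 2. The second, 1422139_at, gave 18.8, 30.2 and 22.2 units in apoE-/- aorta and 34, 9.3 and 14.7 units in wild-type aorta. In a fit without the filter the log2 changes were -0.07 and 0.22, and both intervals spanned 0. At these intensities, which the table does not show to be above background, a difference in Plau was not detectable.

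Plaur encodes the receptor that holds urokinase on the cell surface and is known from monocytes and macrophages. It was the sole tested member whose groups did not overlap, 1 of 9, against 24.7% of all genes. It gave 515.4, 546.3 and 700.9 units in apoE-/- aorta and 453.3, 423.4 and 499.1 units in wild-type aorta. The gap between the groups was small, from 499.1 to 515.4 units, and apoE-/- replicate 3 stood above the other arrays. Plaur averaged 587.5 ± 99.4 units in apoE-/- aorta and 458.6 ± 38.1 units in wild-type aorta (SD, n = 3 each). This is a log2 change of 0.34 ± 0.14 (SE, 95% interval 0.01 to 0.67), with an unadjusted p = 0.0466 and an adjusted p = 0.264 in limma. Without apoE-/- replicate 3 the log2 change was 0.21 (adjusted p = 0.597).

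Plaur can be set beside the 10 macrophage markers, all of which had groups that did not overlap. Their median log2 change was 1.49, with Cd68, a lysosomal protein of macrophages, at 2.87, the complement chain C1qb at 2.04 and C1qa at 1.86. The marker sum was lowest among apoE-/- arrays on replicate 2 (35165 units) and highest on replicate 1 (50301 units), whereas Plaur was lowest on replicate 1. The part of macrophage content in the Plaur values was not tested. Plaur was also the sole gene among the members and the other listed pathway genes to start within 10 Mb of Apoe in the GRCm38.p6 gene table. The part of DNA flanking the targeted gene was not tested.

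Anxa2 encodes annexin A2, which with its partner S100a10 gathers plasminogen and tissue-type activator on cell surfaces. Its main probe set, 1419091_a_at, gave 9123.8, 6947.6 and 7863.9 units in apoE-/- aorta and 6538.8, 7281.5 and 6275.2 units in wild-type aorta. Replicates 1 and 3 of apoE-/- lay above every wild-type array, and apoE-/- replicate 2 lay below wild-type replicate 2. Its log2 change was 0.25 ± 0.12 (SE, 95% interval -0.02 to 0.51, limma adjusted p = 0.301), and 0.14 (adjusted p = 0.531) without apoE-/- replicate 1, the highest array. A dim second probe set, 1437692_x_at, of a type whose probes can match other transcripts, read 47.1, 160.3 and 137.5 units in apoE-/- aorta and 283.5, 123.6 and 119.4 units in wild-type aorta. Its log2 change of -0.58 ± 0.44 (SE, adjusted p = 0.568) rested on a low first apoE-/- array and a high first wild-type array. The third Anxa2 probe set lay between 2.2 and 6.4 units on all arrays, under the filter.

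S100a10, named here as that partner, showed much the same arrangement of arrays as the main Anxa2 probe set. It gave 4939.5, 3894.5 and 5332.7 units in apoE-/- aorta and 3461, 4079.2 and 3534.9 units in wild-type aorta. Here too apoE-/- replicates 1 and 3 lay above all wild-type arrays and apoE-/- replicate 2 below wild-type replicate 2. Its log2 change was 0.35 ± 0.13 (SE, limma's adjusted p = 0.207), not called.

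**Figure D3:**
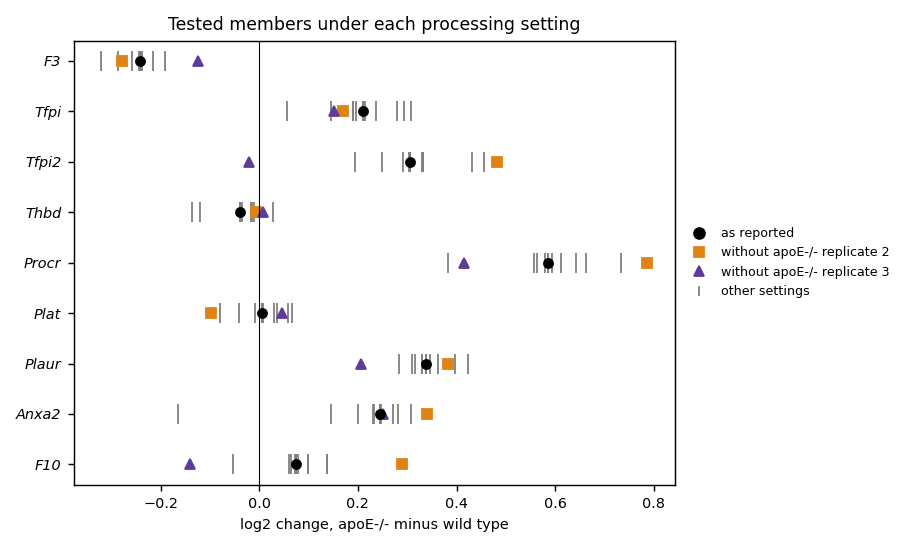
Log2 change, apoE-/- minus wild type (horizontal axis), of the 9 tested genes as reported (black circles), without apoE-/- replicate 2 (orange squares), without apoE-/- replicate 3 (purple triangles) and under the other settings (grey ticks). F3, Tfpi, Procr and Plaur keep their sign throughout, Procr between 0.38 and 0.79 and Plaur between 0.21 and 0.42.

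The same whole-table test was read for other genes of these pathways. Of 60 listed genes, 37 were tested, 4 rose and 0 fell in apoE-/- aorta, where 3.19% of all genes were called higher and 0.467% lower. A count of 7 listed genes had no single-gene probe set in the annotation used and were not analysed here, and the remaining 16 lay under the filter. All 4 that rose belong to a list of plasminogen-binding and protease-clearing surface proteins or to the annexin family. The other lists held between 1 and 10 tested genes each, too few for a count of 0 to set them apart from all genes.

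Among 8 tested surface proteins that bind plasminogen or clear proteases, 2 rose, the chains of the leukocyte integrin Mac-1. Itgb2, its beta chain, gave 3246.8, 1640.5 and 4287.2 units in apoE-/- aorta and 511.4, 602.7 and 522.8 units in wild-type aorta, a log2 change of 2.35 ± 0.30 (SE, limma's adjusted p = 0.00494). Itgam, its alpha chain, gave 462.4, 318.6 and 594.8 units in apoE-/- aorta and 112.1, 114.2 and 142.1 units in wild-type aorta, a log2 change of 1.74 ± 0.23 (SE, adjusted p = 0.00609). The groups did not overlap for either gene, and apoE-/- replicate 2 was the lowest apoE-/- array for both. The wild-type mean of Itgam, 122.8 units, lay under the filter level of 124.2 units, so Itgam passed through its apoE-/- values, its wild-type level is not shown to be above background, and the size of its change is uncertain. The same order held for the macrophage marker sum as to its lowest apoE-/- array, and the part of macrophage content was not tested. Over the whole list the median was 0.27 in log2.

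Among 7 other annexins tested, calcium-dependent membrane-binding proteins related to annexin A2, 2 rose, and the list's median log2 change was 0.27. Anxa8 gave 1167.9, 718.5 and 797.1 units in apoE-/- aorta and 199.3, 238.6 and 106.5 units in wild-type aorta, a log2 change of 2.24 ± 0.29 (SE, limma's adjusted p = 0.005). Its second probe set, of a type that can read more than 1 transcript, had a log2 change of 2.65 ± 0.26 (SE). The wild-type mean of that probe set, 123.9 units, lay under the filter level of 124.2 units, so it passed through its apoE-/- values. Its wild-type level is not shown to be above background, and the size of its change is uncertain. Anxa4 averaged 3224 ± 356 units in apoE-/- aorta and 2142 ± 166 units in wild-type aorta (SD, n = 3 each), a log2 change of 0.58 ± 0.11 (SE, adjusted p = 0.024). That call was lost without any one of 4 arrays, with adjusted p-values of 0.101 when apoE-/- replicate 1 was left out, 0.0967 for apoE-/- replicate 3, 0.0683 for wild-type replicate 2 and 0.0857 for wild-type replicate 3. The other kept Anxa4 probe sets had log2 changes of 0.43 and 0.16 and were not called.

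**Figure D4:**
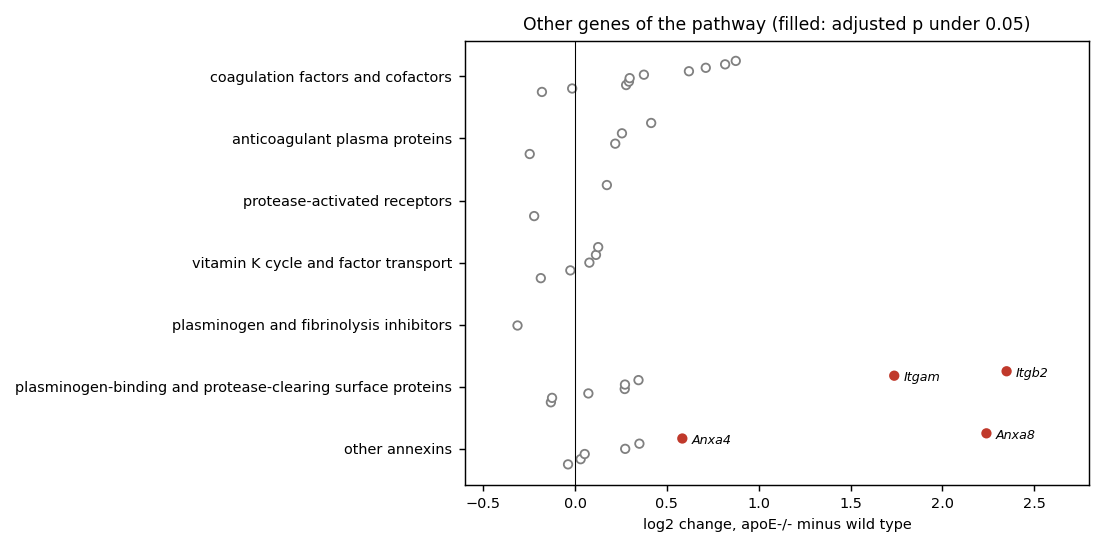
Log2 change, apoE-/- minus wild type (horizontal axis), of each tested gene in 7 lists of other pathway genes; filled red points passed the adjusted test and open points did not. The 4 filled points are Itgb2 at 2.35, Anxa8 at 2.24, Itgam at 1.74 and Anxa4 at 0.58.

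Clotting factors and cofactors made up 10 tested genes, of which 0 were called by limma, with 2 at an unadjusted p under 0.05, against 18.4% of all genes. The member with the smallest p was F7, the blood partner of tissue factor. F7 gave 431.5, 247.4 and 542.7 units in apoE-/- aorta and 184.2, 199.1 and 232 units in wild-type aorta. The groups did not overlap, and apoE-/- replicate 2 lay only just above the wild-type arrays. The log2 change was 0.87 ± 0.26 (SE, limma's adjusted p = 0.129), and F7 was called when apoE-/- replicate 2 was left out (log2 change 1.18, adjusted p = 0.0115). Its highest array was apoE-/- replicate 3, the one with the most liver transcripts, and without that array the log2 change was 0.64 (adjusted p = 0.355). The next highest, apoE-/- replicate 1, had the lowest hepatocyte marker sum, 734 units. Wild-type replicates 1 and 3, with sums of 3444 and 3200 units, read 184.2 and 232 units for F7. The part of liver tissue in the F7 values was not tested. Over the 16 alternatives for F7 the adjusted p ran from 0.0115 to 0.355.

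Other branches held no called gene either. Among 4 tested plasma anticoagulants, Pros1, the cofactor of activated protein C, had the smallest p, with 2073 ± 254 units in apoE-/- aorta and 1549 ± 157 units in wild-type aorta (SD, n = 3 each, log2 change 0.41 ± 0.12, SE, adjusted p = 0.118). Its 2 groups did not overlap. The thrombin receptor F2r, of 2 receptors tested, had a log2 change of 0.17 ± 0.09 (SE, adjusted p = 0.339). Its groups did not overlap either, which held for 24.7% of all genes tested. Of 5 vitamin K cycle and factor transport genes, Ggcx, the carboxylase that makes clotting factors bind calcium, had the smallest p, with a log2 change of -0.19 ± 0.17 (SE, adjusted p = 0.615). Of the fibrinolysis inhibitors and plasminogen a single gene was tested, Serpini1 (neuroserpin, an inhibitor of tissue-type activator). Serpini1 gave 1716.8, 1800.5 and 1560.8 units in apoE-/- aorta and 2215.7, 2020.9 and 2093.8 units in wild-type aorta. Its groups did not overlap, and the log2 change of -0.32 ± 0.09 (SE, adjusted p = 0.12) was not called.

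Most clotting factors and cofactors were highest on 1 apoE-/- array, and none was called between genotypes. This pattern, with the genes named for it, was singled out after the values were seen. Of the 15 clotting factors and cofactors with a probe set, 10 of them above the filter, 12 were highest on apoE-/- replicate 3. Over all 18193 genes the share was 16.8%. The same array was highest for 5 of 7 plasma anticoagulants and all 7 hepatocyte markers with a probe set. It was also highest for 7 of 10 macrophage, 6 of 10 endothelial and 4 of 6 mesothelial markers. None of the smooth muscle, fibroblast, platelet, red cell, skeletal muscle or brown fat markers was highest there. Fga, a fibrinogen chain, gave 10.3, 148.8 and 2641.5 units in apoE-/- aorta and 432.6, 72.7 and 283.2 units in wild-type aorta. Prothrombin (F2) gave 160.8, 153.3 and 780.7 units in apoE-/- aorta and 221.3, 199.3 and 245.9 units in wild-type aorta. Plasminogen (Plg) gave 14.6, 14 and 615 units in apoE-/- aorta and 25, 16.6 and 39.9 units in wild-type aorta. In each case a single apoE-/- array was high and the other pair lay below every wild-type array, or, for Fga, inside or below their range. Alb, the liver's albumin gene, gave 216.4, 350.6 and 6746.1 units in apoE-/- aorta and 2028.3, 317.6 and 1587.3 units in wild-type aorta. Of the 10 members, 5 were highest on that array, namely Tfpi, Tfpi2, Procr, Plaur and F10, and their values without it stand beside each above. The part of liver tissue in these values was not tested.

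**Figure D5:**
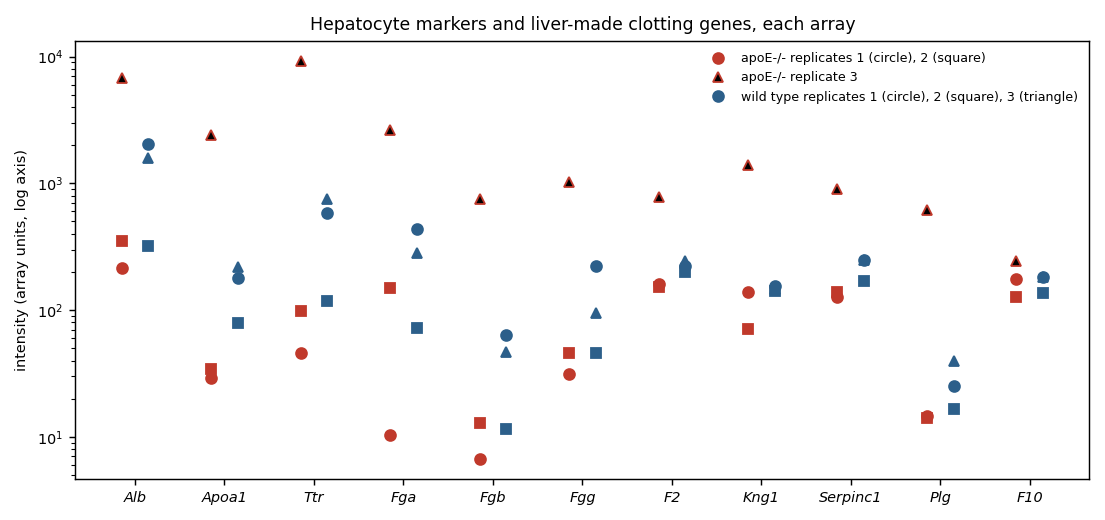
Intensity (vertical log axis, array units) of 3 hepatocyte markers, 7 liver-made genes of clotting and plasmin, and F10 on each array; apoE-/- arrays are red with replicate 3 as black-filled triangles, wild-type arrays are blue. Replicate 3 of apoE-/- is highest for all 11 genes, at 6746.1 units for Alb and 2641.5 for Fga, and stands out least for F10, at 242.7 units.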

How the data were processed

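The deposited values are linear intensities of 45101 probe sets, 1 for each of the 6 arrays. Tested on the values, the authors' deposited intensities shared a mean of 500.002 units per array after trimming 2% at each end, so they had been scaled. The scanner software is not named by the labels, and the table has no detection calls. Array medians lay between 178 and 195.5 units.

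Gene names came from the platform annotation, updated by gene identifier through the GRCm38.p6 gene table (34741 of 34945 probe sets with a single symbol; 932 with several were not named, 9160 had no entry). Values were transformed to log2(intensity + 16), which understates changes of dim probe sets. The 64 control probe sets and the dimmest 40% by mean over all arrays were left out, which kept 27022. Each gene was read from its brightest kept probe set (13052 genes), and a separate fit used every kept probe set. The test was that of limma 3.58.1 under R 4.3.3 (lmFit, eBayes with an intensity trend, genotype as the only term, two-sided, Benjamini-Hochberg adjustment), tested on simulated data. Probe sets under the filter were read from the same fit without a filter. All adjusted p-values come from these fits. The number of arrays limits their precision.

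The members and lists were chosen with earlier results of these data known. Named are all 10 members, up to 4 called genes per list or else the gene with the smallest p, and up to 3 called markers per list. Others are named outside this rule. They include Apoe as the check of the labels, S100a10 as the partner of annexin A2 and the genes of the pattern on apoE-/- replicate 3. Uncalled skeletal muscle and platelet markers are also named outside it. Marker lists covered macrophages, endothelium, smooth muscle, fibroblasts, mesothelium, platelets, hepatocytes, red cells, skeletal muscle and brown fat. No exact permutation test is given for single genes, since groups of 3 and 3 allow no two-sided p under 0.1. The labels give no batch. Alternatives were log offsets of 1 and 64, quantile normalization, median centring, no filter, a 60% filter, no trend, array weights, a replicate block, a 2-fold minimum, the median over each gene's kept probe sets, and leaving out each array.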

Additional observations from a re-analysis of the deposited data

How the results depend on the processing

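No tested member was called under any of the 17 alternatives, by gene (7 to 10 members tested) or, for 16 of them, by probe set. The smallest adjusted p among them was 0.0795 (Procr without apoE-/- replicate 2). Tfpi, F3, Procr and Plaur kept their sign. The signs of the other tested members turned under some settings. Plat changed to -0.0079 with array weights and -0.042 with the median of its probe sets, and ranged from -0.098 to 0.066 when an array was left out. Anxa2 was -0.17 with the median of its kept probe sets, by construction through the dim second one. Left-out arrays turned Tfpi2 (-0.020 to 0.48), Thbd (-0.14 to 0.028) and F10 (-0.14 to 0.29). The 4 other pathway genes called higher became 3 to 5, and Anxa4 was lost under 8 of 17 alternatives, by construction under the 2-fold minimum and with the median of probe sets at adjusted p = 0.343. Over all genes, 477 were called, and 297 without the trend, 264 with a 2-fold minimum, 144, 689 and 205 without apoE-/- replicates 1, 2 and 3, and 274, 304 and 221 without wild-type replicates 1, 2 and 3. Same-numbered arrays did not deviate together (correlations of -0.12, -0.16 and -0.03). With 3 arrays per group this cannot settle whether the numbers pair the samples, and the labels do not say. With the replicate block 314 genes and 0 members were called, and Procr had adjusted p = 0.371. Dim probe sets of Plau and F10 limit what could be measured.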

Other observations

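Markers of other tissues differed between arrays, in part on single arrays. Skeletal muscle markers summed to 299, 350 and 250 units on the apoE-/- arrays and to 585, 756 and 17764 units on the wild-type arrays, so every wild-type array was above every apoE-/- array, with wild-type replicate 3 far above the rest. None of the 5 tested was called by limma, with 3 at an unadjusted p under 0.05. Their median log2 change was -2.59, and 4 had groups that did not overlap, against 24.7% of all genes. All 5 had apoE-/- means under the filter level of 124.2 units, from 10.5 (Myh4) to 113.7 (Acta1), and passed through their wild-type values. Their apoE-/- levels are therefore not shown to be above background. The size of their change is uncertain, and their share without overlap cannot be weighed against that of all genes. Brown adipocyte markers summed to 18143, 11248 and 13090 units on the apoE-/- arrays and 12959, 31622 and 19961 units on the wild-type arrays. Platelet and megakaryocyte markers, which bear on clotting, summed to 7693, 6677 and 6470 units on the apoE-/- arrays and 11370, 6817 and 7080 units on the wild-type arrays. Wild-type replicate 1 was highest for 7 of the 8 platelet markers with a probe set, and 0 of the 7 tested were called by limma. Their median log2 change was -0.39, with 1 of the 7 above 0 and 1 whose groups did not overlap. The unadjusted p in limma was under 0.05 for Gp5 (0.0217), Treml1 (0.0376) and Itga2b (0.0469), against 18.4% of all genes. Red cell markers, of which 3 had a probe set, summed to 1094, 1525 and 696 units on the apoE-/- arrays and 2580, 1361 and 1711 units on the wild-type arrays. No member gene was highest on wild-type replicate 3, and F3 alone was highest on wild-type replicate 1. Fibroblast and smooth muscle markers summed to 63906 to 79019 and 55507 to 67687 units on apoE-/- arrays, against 58977 to 60802 and 62953 to 72644 units on wild-type arrays, with 1 of 8 and 0 of 8 called.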
